A study of Oryza sativa with 6 samples.

Results

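Genes of brassinosteroids, karrikins and strigolactones, signals with a known bearing on mesocotyl length, were followed through 6 RNA-seq libraries of rice mesocotyl. The 5 genes were cytochrome P450 85A1 (ZS03g0517400), the brassinosteroid receptor (ZS01g0578700), the transcription factor ILI1 (ZS04g0769300), the karrikin receptor D14L (ZS11g0268600) and D27-like (ZS08g0020500). They were found by gene name in a table of 35500 loci. One gene name, ZS03g0517400, stood on 2 rows, so the 5 genes gave 6 loci. All 6 reached at least 1 FPKM in some library, as did 23787 loci of the table.

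All libraries came from the mesocotyl of the indica cultivar P25, each from 1 RNA pool. Seedlings were kept dark for 1, 3 or 5 days after sowing, and further seedlings, 5 days old, then received 30 min of light, 60 min or 24 h. Every group thus held 1 library, with no replicate check on any value, so no test was possible and differences describe these libraries only. FPKM, the unit of all levels below, is the fragment count scaled to transcript length and library size, so levels can be compared between genes.

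Brassinosteroids are steroid hormones that promote cell elongation. The membrane kinase BRI1 binds them with its co-receptor BAK1, which ends the inhibition of the BZR1 transcription factors by BIN2-type kinases. Strigolactones are made from beta-carotene and karrikins occur in smoke. Each is bound by a related hydrolase, D14 or D14L (KAI2 in Arabidopsis), which acts with the F-box protein D3. In rice, loss of brassinosteroid synthesis or perception shortens the dark-grown mesocotyl, whereas loss of strigolactone or D14L signalling lengthens it.

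The libraries differed in ways that touch the results. Library sums lay between 336212 and 359808 FPKM, and total depth is unknown. In the 3-day dark library, 1 locus (ZS07g0251700) held 14.9% of the sum, against 0.902% to 2.85% for the highest locus of the other libraries. Green shoot markers, 12 loci of antenna, Rubisco small subunit, oxygen-evolving and ferredoxin proteins, summed to 371 FPKM at 5 days dark and 1122 after 60 min of light. In the other libraries they summed to 24.4 to 67.0 FPKM. Surface markers, 34 lipid-transfer and 3-ketoacyl-CoA synthase loci, summed to 1201 FPKM at 1 day dark, 1361 after 60 min and 922 after 24 h of light, and to 432 to 495 elsewhere. Seed storage loci summed to 0.249 to 6.20 FPKM, knotted-type meristem loci to 59.6 to 92.7, secondary wall cellulose synthases to 13.9 to 41.3 and root loci to 2.64 to 17.2. In pooled tissue, fewer cells of a type and less RNA per cell cannot be told apart. An exact 0 in the table can be a failed estimate, since each library had 4 to 10 such loci that all other libraries placed at 10 FPKM or above.

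P450 85A1, the brassinosteroid-6-oxidase that makes the active hormone castasterone, was higher in the light libraries than in the dark ones. It stood at 3.62, 2.85 and 6.93 FPKM at 1, 3 and 5 days of darkness. After 30 min, 60 min and 24 h of light it stood at 10.8, 10.96 and 10.6 FPKM. The 3 light libraries thus lay close together and above all 3 dark libraries, and the first of them was already at that level. Seedlings of the 1-day and 3-day dark libraries were younger than those given light, so light and age cannot be told apart there. No dark library matched the 24-h light library in age. Among all measured loci, 9.21% lay above the dark libraries in all 3 light libraries and 1.64% below. Of the 6 member loci, 2 lay above and 0 below.

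The light levels of P450 85A1 were 1.56, 1.58 and 1.53 times the 5-day dark level. On the scale log2((FPKM + 1)/(FPKM + 1)), used for all differences here, these were 0.57, 0.59 and 0.55, short of the 2-fold difference (1 on this scale) needed to count a locus as higher or lower. Set against the 3-day dark library they were 1.61, 1.63 and 1.59, where the medians over all loci were 0.27, 0.33 and 0.23. Between 3 and 5 days of darkness the locus differed by 1.04, but by 0.76 when libraries were scaled to the median ratio of loci and by 0.99 when scaled to equal sums, both under the 2-fold line. Its position among loci at 1 FPKM or more moved from above 27.6% of them at 3 days dark to above 62.7% after 24 h of light.

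The second row named ZS03g0517400 carried no product name. It was listed at 0.0871, 0 and 2.61 FPKM at 1, 3 and 5 days of darkness and at 0.202, 0.620 and 0.232 after light. This row was highest in the 5-day dark library, where P450 85A1 itself was not. A second locus with the ortholog entry of brassinosteroid-6-oxidase, ZS11g0225300, has the product name hypothetical protein. It was picked by that entry, after the table had been opened. It stood at 35.1, 136 and 43.9 FPKM in darkness and at 36.5, 20.4 and 16.8 after light, in the same order of times. Its order thus differed from that of P450 85A1, with its highest value at 3 days dark and its lowest after 24 h of light. Whether it encodes an active enzyme of this step is not given by the table.

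The list of brassinosteroid synthesis and inactivation had 5 measured loci of 6. None of the 5 was at least 2-fold higher or lower than at 5 days dark after 30 min, 60 min or 24 h of light. Of all measured loci, 9.49% were higher and 11.4% lower after 30 min, 14.8% and 12.8% after 60 min, and 11.6% and 14.4% after 24 h. The median differences of the 5 were 0.30, 0.25 and 0.48, while the medians over all loci were 0, 0.01 and 0. Delta(24)-sterol reductase (ZS10g0307700), an early step that feeds plant sterols into the pathway, was the highest of them. It stood at 327, 109 and 93.7 FPKM in darkness and at 115, 142 and 75.5 after light. The 1-day library stood out on the high side.

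CYP734A enzymes inactivate brassinosteroids by hydroxylation. CYP734A1 (ZS05g0412200) stood at 5.17, 16.1 and 8.49 FPKM in darkness and at 17.3, 7.47 and 13.9 after light. Its high values fell at 3 days dark and at 30 min and 24 h of light, its low ones at 1 day dark and 60 min of light. CYP734A6 (ZS01g0326900) stood at 2.85, 1.47 and 1.36 in darkness and at 0.506, 1.80 and 2.30 after light. The merged CYP734A4 locus (ZS06g0524300 and ZS06g0524400) lay between 1.40 and 4.56 FPKM.

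**Figure D1:**
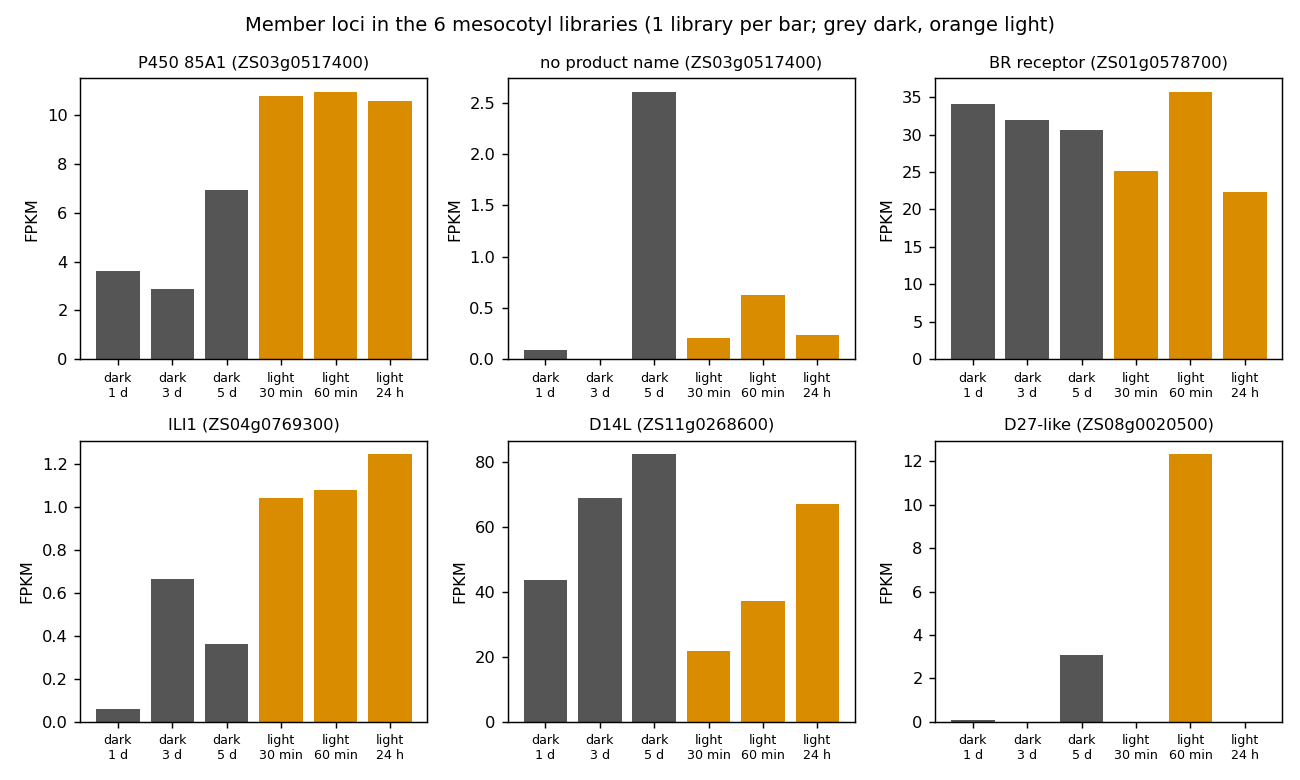
FPKM (vertical axes, linear from 0) of the 6 member loci in each library (horizontal axes; grey bars darkness, orange bars light; 1 library per bar, no error bars). P450 85A1 stood at 10.6 to 10.96 in the light libraries and at 2.85 to 6.93 in darkness, while D27-like reached 3.07 and 12.3 in 2 libraries and at most 0.102 in the others.

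The brassinosteroid receptor locus was the steadiest member. The deposited product name of ZS01g0578700 is systemin receptor SR160, the name under which the tomato BRI1 was also described, and its annotation terms include detection of brassinosteroid. It stood at 34.0, 32.0 and 30.6 FPKM at 1, 3 and 5 days of darkness. After 30 min, 60 min and 24 h of light it stood at 25.2, 35.7 and 22.4 FPKM. The deposited light values thus fell on both sides of the dark ones, and the highest value was 1.60 times the lowest. When libraries were scaled to the median ratio of loci, 3 days dark was highest and the 60-min value lay within the dark range. The differences were then -0.41 for 5 against 3 days dark and 0.13 for 60 min of light against 5 days dark.

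No comparison placed the receptor at a 2-fold difference. Its largest was -0.65, for 24 h against 60 min of light. It was above 82.0% to 90.5% of the loci at 1 FPKM or more in every library.

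The list of brassinosteroid perception and signalling had 13 measured loci of 14, the receptor included. Against 5 days dark, 1 locus was at least 2-fold higher and 0 lower after 30 min, 0 and 1 after 60 min, and 2 and 0 after 24 h. In the same comparisons 9.49% and 11.4%, 14.8% and 12.8%, and 11.6% and 14.4% of all loci were so. Their medians were 0.03, 0.14 and 0.01, with 0, 0.01 and 0 over all loci. From 1 to 3 days of darkness, 1 was higher and 0 lower, with 13.5% and 14.5% of all loci (median -0.09, all loci -0.03).

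The receptor-like kinase BRI1-like 3 (ZS09g0147100), a relative of the receptor, moved most. It stood at 0.769, 10.2 and 6.05 FPKM in darkness and at 11.96, 2.52 and 15.5 after light. The libraries of 1 day dark and 60 min of light were its lowest. A shaggy-related kinase eta (ZS02g0155400), of the BIN2 type, stood at 62.8, 55.3 and 24.9 in darkness and at 63.9, 29.8 and 65.5 after light. Here the 5-day dark and 60-min libraries were low, the pair in which the green shoot markers were high. Their part in these values was not tested.

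The other kinase and phosphatase loci named by rule stayed within 2-fold in the comparison that named them. Shaggy-related kinases alpha (ZS10g0410500 and ZS01g0211100) differed by 0.47 and -0.31 after 24 h of light, and a kinase eta (ZS05g0124500) by -0.54. From 1 to 3 days of darkness, the lowest differences of measured loci were -0.57 for kinase eta ZS01g0108800, -0.39 for the phosphatase BSL1 homolog (ZS05g0052100) and -0.31 for kinase eta ZS06g0457600. The co-receptor type kinase ZS06g0147400, a somatic embryogenesis receptor kinase 2, differed by 0.42, and kinase eta ZS05g0124500 by 0.71.

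BZR1/BES1-type factors, the transcriptional end of the pathway, were found by ortholog entry after the table had been opened, with 4 measured loci of 5. From 1 to 3 days of darkness 3 of the 4 were at least 2-fold lower, as were 14.5% of all loci. ZS01g0107400 stood at 53.8, 5.67 and 35.6 FPKM in darkness and at 44.6, 40.5 and 42.9 after light, so that the 3-day library was apart from the other 5. ZS06g0460900 stood at 12.5, 9.60 and 1.23 in darkness and at 13.4, 6.72 and 1.91 after light. BIN2-type kinases by the same kind of entry had 10 measured loci. Of these, 1 was higher and 1 lower after 30 min, 0 and 1 after 60 min, and 1 and 0 after 24 h of light. BSK kinases, which carry the signal from the receptor, had 8 measured loci, with 0 higher and 1 lower, 1 and 1, and 0 and 2 in the same comparisons. The shares of all loci there were 9.49% and 11.4%, 14.8% and 12.8%, and 11.6% and 14.4%. BKI1, an inhibitor of the receptor, had 2 measured loci. One of them, ZS09g0325800, stood at 7.10, 0 and 1.74 FPKM in darkness and at 0.816, 7.63 and 0.771 after light. The receptor's own ortholog entry was shared by 124 loci and is not used as a list of receptors.

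**Figure D2:**
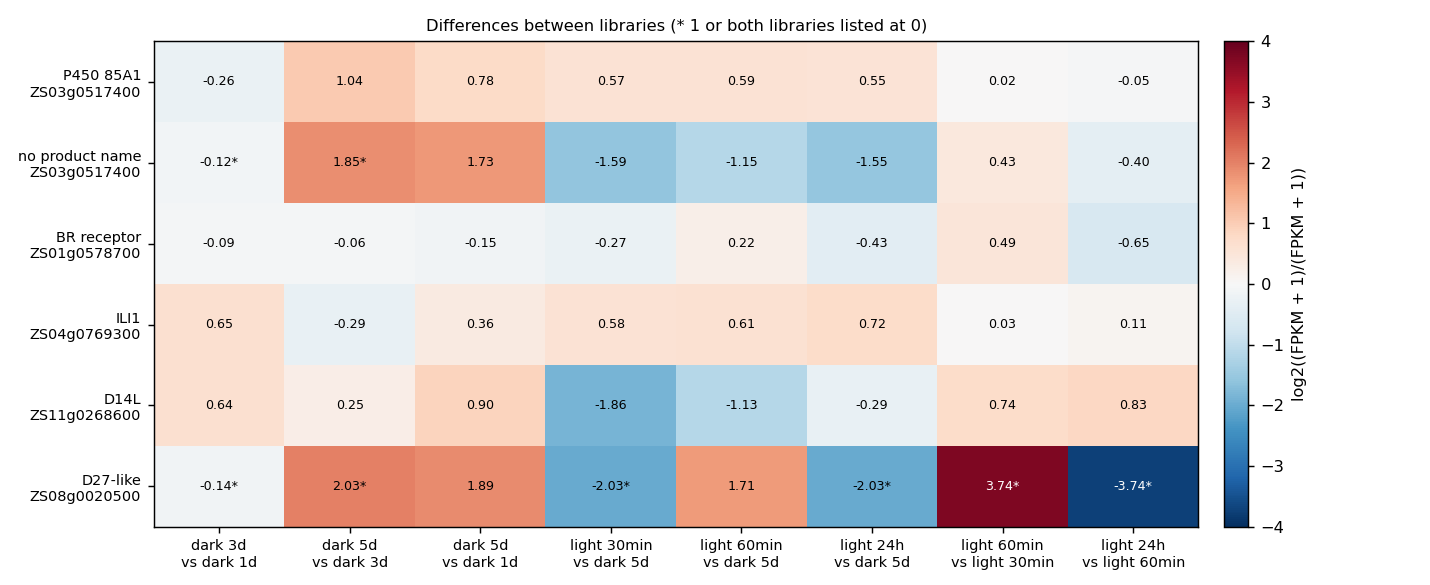
Differences as log2((FPKM + 1)/(FPKM + 1)) for the 6 member loci (rows) in 8 comparisons of single libraries (columns, first library against second; red higher, blue lower in the first). A star marks a pair with a library listed at 0; D14L shows -1.86 and -1.13 after 30 and 60 min of light, and the receptor stays within -0.65 to 0.49.

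ILI1, a small basic helix-loop-helix protein that promotes cell elongation in the rice leaf joint by binding IBH1, had the lowest maximum of the members, although D27-like and the unnamed row had lower medians. It stood at 0.0599, 0.664 and 0.364 FPKM in darkness. After 30 min, 60 min and 24 h of light it stood at 1.04, 1.08 and 1.25 FPKM. All 3 light values lay above all 3 dark values, as for P450 85A1, but near the bottom of the measured range, above at most 5.51% of loci at 1 FPKM or more. The limit of age given for P450 85A1 holds here too. Its differences from 5 days dark were 0.58, 0.61 and 0.72. They were 1.30, 1.35 and 1.54 with a pseudocount of 0.1 in place of 1, past the 2-fold line. At this level the fold depends on that choice.

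Of its 7 relatives in the list, ILI4, ILI5 and ILI3 were more abundant at 1 day dark than in any other library, and the other 4 were not. ILI4 (ZS06g0148700) stood at 87.3 FPKM at 1 day dark and at no more than 0.793 in any later library, with a listed 0 after 24 h of light. ILI5 (ZS02g0633000) stood at 54.2, 1.39 and 1.20 FPKM in darkness and at 4.14, 13.1 and 5.22 after light. ILI3 (ZS03g0070600) stood at 5.93, 0.595 and 1.17 in darkness and at 1.15, 5.07 and 4.84 after light. The 3 thus shared their highest value at 1 day dark, and ILI5 and ILI3 a next highest value at 60 min of light. Surface markers had their highest sums in the same 2 libraries (1201 and 1361 FPKM), with 922 after 24 h of light. Their medians did not single out these libraries, at 2.12 and 2.18 FPKM there and 2.20 at 5 days dark. The part of these markers was not tested.

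The IBH1-like locus (ZS05g0063400), related to the protein that restrains elongation, stood at 0.0515, 0 and 0.835 FPKM in darkness and at 3.51, 0.635 and 2.81 after light. ILI2 (ZS11g0529000), ILI7 (ZS10g0314200) and ILI3-like (ZS10g0313600) stayed at or below 1.52 FPKM and were each listed at 0 in 2 or 3 libraries. Over the 8 loci of this list, 2 were higher and 3 lower at 3 than at 1 day of darkness, with 13.5% and 14.5% of all loci. Against 5 days dark, 2 were higher and 0 lower after 30 min, 3 and 1 after 60 min, and 3 and 0 after 24 h, with medians of 0.04, 0.47 and 0.74 (all loci 0, 0.01 and 0). The shares of all loci were 9.49% and 11.4%, 14.8% and 12.8%, and 11.6% and 14.4%.

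**Figure D3:**
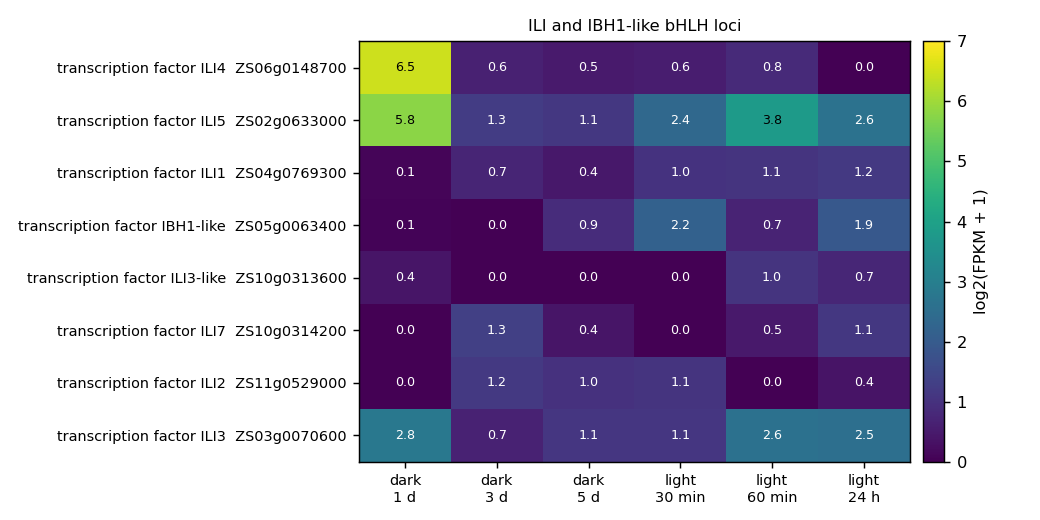
Levels as log2(FPKM + 1) of the 8 ILI and IBH1-like loci (rows) in the 6 libraries (columns, 1 library each). ILI4 and ILI5 are highest at 1 day dark, at 87.3 and 54.2 FPKM, while ILI1 remains at or below 1.25 FPKM throughout.

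D14L, the hydrolase through which karrikins act, was the most abundant member in every library but 30 min of light. It stood at 43.8, 68.9 and 82.4 FPKM at 1, 3 and 5 days of darkness. After 30 min, 60 min and 24 h of light it stood at 21.9, 37.2 and 67.1 FPKM. The level was thus higher at each later dark age, lowest at 30 min of light and nearer to the dark levels at each later light time. The highest value was 3.76 times the lowest.

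The 30-min level of D14L lay 3.76-fold below the 5-day dark level (difference -1.86), and only 3.21% of all measured loci had a lower difference. At 60 min it was 2.21-fold below (-1.13), and at 24 h 1.23-fold below (-0.29). Against the 3-day dark library the differences were -1.61, -0.87 and -0.04, so the 60-min value then fell short of 2-fold. The receptor locus was above D14L at 30 min, at 25.2 against 21.9 FPKM, and below it in the other 5 libraries.

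The identifier numbers this locus with chromosome 11, whereas D14L of reference rice is known from chromosome 3. Its near neighbours in the numbering include allene oxide cyclase 3 (ZS11g0268300 and ZS11g0268400) and a locus whose product name is the chromosome 3 identifier Os03g0439200 (ZS11g0267300). The ortholog entry given to it is that of a 3-hydroxyisobutyryl-CoA hydrolase, shared by 25 loci. Of product name and ortholog entry, only the product name thus gives D14L. Whether its neighbours match those of D14L in reference rice was not tested.

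A second receptor-type locus, probable esterase KAI2 (ZS01g0458400), stood at 1.61, 4.24 and 3.72 FPKM in darkness and at 10.6, 2.18 and 1.59 after light. Its highest value fell at 30 min, where D14L had its lowest. The strigolactone receptor type locus DAD2 (ZS05g0094000) lay between 0 and 0.178 FPKM and was not counted as measured. Its name comes by similarity, so its level does not show that the strigolactone receptor was absent. The F-box protein D3 and the repressors D53 and SMAX1 were also sought by product name. The search gave no locus for them, so they are not analysed here.

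D27-like, annotated as a chloroplast beta-carotene isomerase of the D27 type, the enzyme family that opens strigolactone synthesis, was on in 2 libraries. It was listed at 0.102, 0 and 3.07 FPKM at 1, 3 and 5 days of darkness. After 30 min, 60 min and 24 h of light it was listed at 0, 12.3 and 0 FPKM. Darkness and light did not separate it, since its high values were 1 dark and 1 light library. The 60-min level was 4.01 times the 5-day dark level. No fold is given against the listed zeros.

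The same 2 libraries held most of the green shoot markers. At 60 min, 11 of the 12 marker loci reached 1 FPKM and their median was 70.8, and at 5 days dark 11 of 12 reached it with a median of 11.01. At 3 days dark and 30 min of light 3 of 12 did, at 1 day dark 6 and at 24 h of light 8, with medians of 0.0189 to 2.19 FPKM. Antenna protein CP29.1 (ZS07g0459100), a defining marker, was listed at 0 at 3 days dark and stood at 0.0618 at 30 min, 12.9 at 5 days dark and 83.6 at 60 min. The number of marker loci listed at 0 was 6 at 3 days dark, 3 at 30 min, 0 at 60 min and 1 in each of the others. The part of the tissue mixture in the D27-like values was not tested.

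**Figure D4:**
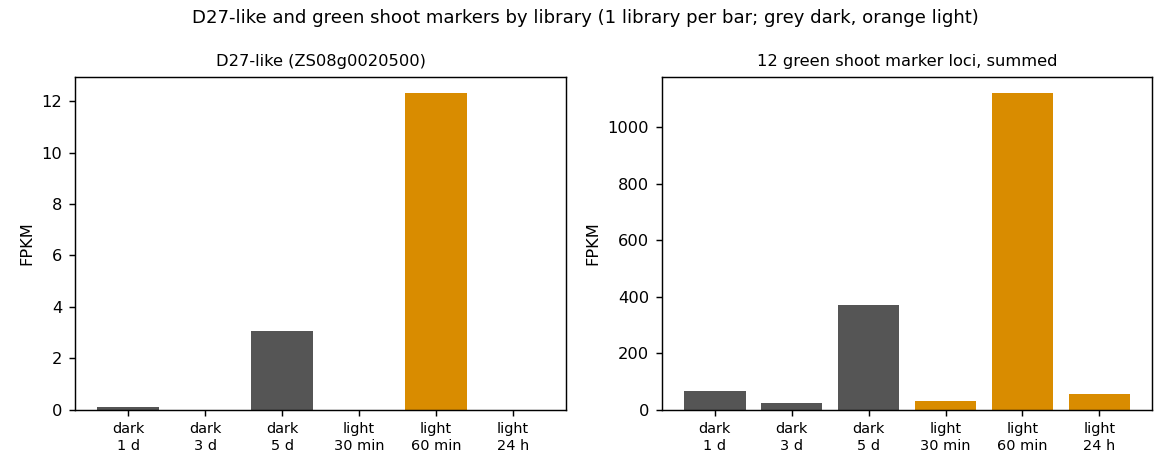
FPKM (vertical axes, linear from 0) of D27-like (left) and summed over 12 green shoot marker loci (right) in each library (grey darkness, orange light; 1 library per bar). Both are highest after 60 min of light, at 12.3 and 1122 FPKM, and next highest at 5 days dark, at 3.07 and 371.

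Other strigolactone synthesis loci did not share this pattern of levels. CYP711A1 (ZS06g0479700), of the MAX1 type that oxidises carlactone, stood at 1.54, 9.40 and 11.8 FPKM in darkness and at 5.77, 1.32 and 7.15 after light, with its lowest value at 60 min. The CCD7-type locus ZS04g0658600, found by ortholog entry, stood at 1.45, 3.50 and 7.43 in darkness and at 9.17, 6.20 and 5.41 after light. Carotenoid cleavage dioxygenase 8 homolog B (ZS01g0610700), which makes carlactone, stayed at or below 0.489 FPKM. A second locus with the D27 ortholog entry (ZS11g0517400) stayed at or below 0.390, and a partial CYP711A1 (ZS01g0562600) at or below 0.470. Which of the 2 loci with the D27 entry is the D27 of reference rice was not determined. Of the 4 loci of the synthesis list, 2 were measured, D27-like and CYP711A1.

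The list of the carotenoid pathway held 10 measured loci, not all of them on the way to beta-carotene. Of these, 4 were higher by 2-fold or more and 0 lower at 5 than at 3 days of darkness (median 0.74, all loci 0.27). Of all loci 14.6% were higher and 4.79% lower. After 60 min of light, 1 was higher and 1 lower than at 5 days dark (median 0.13), and after 24 h 0 and 3 (median -0.50), with 14.8% and 12.8%, and 11.6% and 14.4%, of all loci. Lycopene epsilon cyclase (ZS01g0444800), which leads to lutein, was listed at 0.291, 0 and 3.95 FPKM in darkness and at 0.0227, 5.24 and 0.166 after light. Phytoene synthase 2 (ZS12g0506100), the entry enzyme, stood at 2.36, 0.482 and 2.93 in darkness and at 3.595, 25.3 and 5.66 after light. Beta-carotene hydroxylase 2 (ZS04g0684800) stood at 0.619, 2.60 and 9.23 in darkness and at 4.60, 16.4 and 2.49 after light. These 3 had their highest values at 60 min, where the green shoot markers also did. Zeta-carotene desaturase (ZS07g0123000) and prolycopene isomerase 1 (ZS11g0509600) lay between 14.3 and 26.0 and between 5.39 and 9.27 FPKM in all libraries. Zeta-carotene isomerase (ZS12g0215900) lay between 6.65 and 12.8, zeaxanthin epoxidase (ZS04g0547700 and ZS04g0547800) between 4.18 and 7.75, and lycopene beta cyclase (ZS02g0103600) between 2.02 and 4.21. Phytoene dehydrogenase (ZS03g0079800) was highest at 5 days dark, at 20.1 FPKM, and lay between 10.8 and 15.8 elsewhere. Phytoene desaturase (ZS07g0533100) stood at 1.49 at 5 days dark, at or below 0.0733 elsewhere, and was listed at 0 in 3 libraries, the 60-min library among them. Of these other 7 loci, zeta-carotene desaturase, prolycopene isomerase 1 and zeaxanthin epoxidase also had their highest value at 60 min, and the other 4 did not.

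In the sterol pathway upstream of brassinosteroids, 5 of 8 measured loci were lower by 2-fold or more and 0 higher at 3 than at 1 day of darkness (median -1.40, all loci -0.03). Of all loci 14.5% were lower and 13.5% higher. Cycloartenol synthase (ZS02g0047200), which forms the first plant sterol ring system, stood at 66.7, 20.0 and 23.8 FPKM in darkness and at 22.7, 35.9 and 26.9 after light. Squalene synthase (ZS03g0746800) stood at 55.6, 17.2 and 13.4 in darkness and at 20.6, 29.8 and 20.2 after light. After 60 min of light 3 loci were higher and 1 lower than at 5 days dark (median 0.65), and after 24 h 0 and 1 (0.05), with 14.8% and 12.8%, and 11.6% and 14.4%, of all loci. For both of these loci, the next highest value after 1 day dark fell at 60 min of light. Surface markers had their highest sums in these 2 libraries, but also summed to 922 FPKM after 24 h of light. By median they were as high at 5 days dark (2.20 FPKM). The part of these markers was not tested. Sterol C5(6)-desaturase (ZS01g0040400) stood at 56.7 FPKM at 1 day dark and 53.3 at 60 min, and between 18.0 and 26.3 elsewhere. Methylsterol monooxygenase 1-1 (ZS10g0439000) stood at 41.6 and 44.7 in those libraries and squalene monooxygenase (ZS03g0119400) at 24.6 and 25.0, the latter also at 22.3 at 3 days dark. Delta(14)-sterol reductase (ZS09g0428200) stood at 48.8 at 1 day dark and between 15.2 and 20.1 elsewhere. The remaining squalene synthase (ZS07g0119600) and cycloartenol synthase-like (ZS02g0045800) were highest at 5 days dark instead, at 12.4 and 6.29 FPKM.

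**Figure D5:**
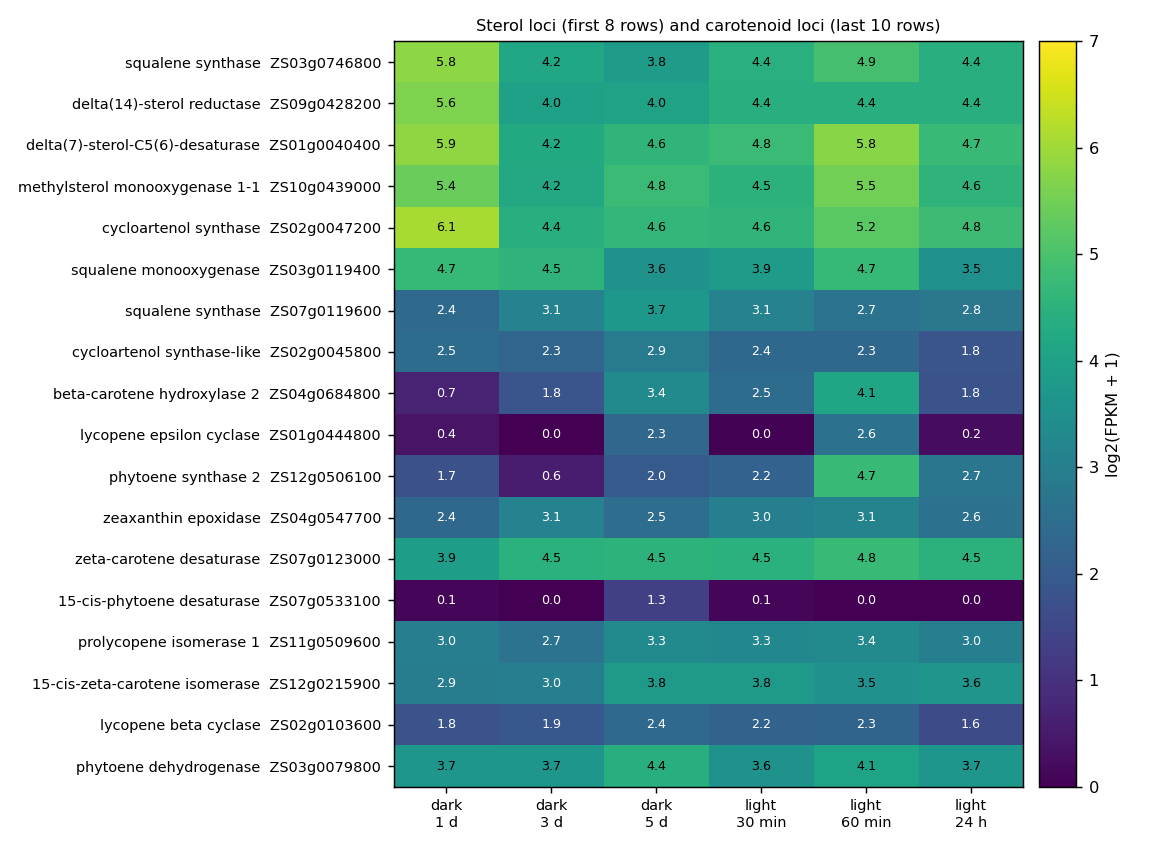
Levels as log2(FPKM + 1) of 8 sterol loci (upper rows) and 10 carotenoid loci (lower rows) in the 6 libraries (columns, 1 library each). Cycloartenol synthase is highest at 1 day dark, at 66.7 FPKM, and phytoene synthase 2 at 60 min of light, at 25.3.

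The count of member loci past 2-fold can be read against all 23787 measured loci. From 1 to 3 days of darkness, 0 of 6 were higher and 0 lower, with 13.5% of all loci higher and 14.5% lower. From 3 to 5 days, 3 were higher (P450 85A1, its unnamed companion row and D27-like) and 0 lower, with 14.6% and 4.79% of all loci. Of all loci past 2-fold here, 75.2% were higher, and 60.0% when scaled to the median ratio of loci, which took P450 85A1 from the count. That scaling moved the median of all loci from 0.27 to 0.02. From 1 to 5 days, 2 were higher and 0 lower, with 23.4% and 11.4%.

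After 30 min of light, 0 were higher and 3 lower than at 5 days dark (D14L, D27-like and the unnamed row), with 9.49% and 11.4% of all loci. After 60 min, 1 was higher (D27-like) and 2 lower (D14L and the unnamed row), with 14.8% and 12.8%. After 24 h, 0 were higher and 2 lower (D27-like and the unnamed row), with 11.6% and 14.4%. These 3 comparisons share the 5-day dark library, in which D14L and the unnamed row had their highest deposited values. From 30 to 60 min, 1 was higher and 0 lower, with 15.2% and 11.8%, and from 60 min to 24 h 0 and 1, with 10.7% and 15.1%. With 6 loci, counts of this size say little beyond the members' own values.

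The loci most like each member were sought among 10114 loci with a product name, a mean of at least 5 FPKM and no listed 0, by Pearson's r of log2(FPKM + 1) over the 6 libraries. For P450 85A1 these were the hypothetical protein ZS11g0482000 (r = 1.00 after rounding), the BTB/POZ protein POB1 (ZS06g0406600, 0.994) and an RNA polymerase I subunit (ZS10g0389400, 0.983). POB1 stood at 7.05, 5.68 and 9.89 FPKM in darkness and at 12.3, 12.2 and 12.7 after light. For ILI1 the first was autophagy-related protein 9 (ZS03g0144000, 0.983), and for the receptor a probable inactive receptor kinase (ZS04g0597000, 0.980).

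For D14L the first was the hypothetical protein ZS06g0633600 (0.962), followed by DCN1-like protein 2 (ZS06g0154500, 0.943), at 82.5, 110 and 155 FPKM in darkness and 54.8, 67.2 and 94.7 after light. For D27-like it was probable aldo-keto reductase 1 (ZS04g0388400, 0.996), at 2.92, 2.60 and 6.39 in darkness and 2.98, 14.03 and 2.95 after light. Photosynthesis loci with a listed 0 could not enter this search. For the unnamed row of ZS03g0517400 it was the hypothetical protein ZS02g0238100 (0.996). These values of r rest on 6 libraries and were picked as the highest of many, and they are given as a description.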

How the data were processed

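The authors deposited 1 table with FPKM values per locus for 6 libraries, per the file headers. Per the labels' protocols, poly(A) RNA was captured from TRIzol extracts and read from both ends (Illumina HiSeq). No strand-specific counting is stated, so overlapping antisense reads cannot be told apart. Bowtie 0.12.2 and a mouse build, mm8, stand without a role in the submitters' processing notes. A rice build and a counting tool were not given in the sources used here. One p-value and one q-value per locus, deposited by the authors under a header that names no comparison, were not used. No ZS gene name matched the reference gene table (0 of 31872), and no coordinates or sequences are printed.

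FPKM are not counts and there is 1 library per group, so no test was run. Differences were log2((FPKM + 1)/(FPKM + 1)) for loci that reached 1 FPKM in any library, counted as higher or lower from 2-fold. This scale understates differences of low loci. Columns were computed with Python 3.11.15, numpy 2.4.6 and pandas 2.3.3, and drawn with matplotlib 3.10.9.

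The members and lists were chosen with earlier results of these data known. There were 7 lists by product name, 6 marker lists by product name and 15 lists by deposited KEGG entry or GO term, the last added after the table had been opened. Named loci were the members, any measured locus of lists with up to 12 loci, the 3 highest and 3 lowest of longer lists at 24 h of light against 5 days dark and at 3 against 1 day dark, and the 3 loci most like each member. Loci named from KEGG entries were chosen after their values were seen. Product names come from similarity, and values of close paralogs are uncertain.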

Additional observations from a re-analysis of the deposited data

How the results depend on the processing

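Alternatives were a pseudocount of 0.1, no filter on low values, scaling to the median ratio of loci, scaling to equal library sums and, for light, the 3-day dark library as control. Of the recomputed member counts, 31 stayed within 1.5 times and 4 did not. These counts took higher and lower loci together, so a change of direction or of locus does not show in them. With a pseudocount of 0.1, 2 loci were past 2-fold at 3 against 1 day dark in place of 0, 2 at 60 against 30 min in place of 1, and 2 at 24 h against 60 min in place of 1; the changed loci (ILI1, D27-like and the unnamed row) had levels under about 1 FPKM, where a smaller pseudocount enlarges a difference. With the 3-day control, 1 was past 2-fold after 24 h in place of 2. The 2 had been lower (D27-like and the unnamed row), whereas the 1 was P450 85A1, which was higher (1.59). P450 85A1 was also past 2-fold higher with that control after 30 and 60 min (1.61 and 1.63). The unnamed row reversed there, to 0.27, 0.70 and 0.30 after 30 min, 60 min and 24 h, being listed at 0 at 3 days dark. Of the recomputed member differences, 191 kept their side of 2-fold, 16 crossed it and 3 reversed. Of the list counts, 196 stayed within 1.5 times and 28 did not, 17 of these with the pseudocount of 0.1. The same pseudocount raised the counts over all loci, for example from 3218 higher and 3443 lower to 5239 and 5260 at 3 against 1 day dark, and from 2257 and 2717 to 3791 and 4198 at 30 min against 5 days dark. P450 85A1 and ILI1 lay above darkness in all 3 light libraries under both scalings, as did 5.57% of all loci with the median ratio and 9.30% with equal sums, in place of 9.21%. No paired analysis was possible because each group has 1 library. Depth is unknown, so no limit from counting error is given for the low levels of ILI1 and the listed zeros.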

Other observations

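Annotation terms in the deposited table gave wider groups, added after the table had been opened. Of 53 measured loci with the term response to karrikin, 7 were at least 2-fold higher and 4 lower after 30 min of light than at 5 days dark, 16 and 4 after 60 min, and 14 and 9 after 24 h. Of all loci, 9.49% and 11.4%, 14.8% and 12.8%, and 11.6% and 14.4% were so. Their medians were -0.03, 0.36 and 0.19, while those over all loci were 0, 0.01 and 0. The term comes by similarity from other species and does not show that karrikin acted in these seedlings. Of 35 loci with the term brassinosteroid mediated signaling pathway, 9 were higher and 1 lower after 30 min, 5 and 2 after 60 min, and 6 and 3 after 24 h (medians 0.27, 0.22 and 0.16), beside the same shares of all loci.

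The deposited pathway Brassinosteroid biosynthesis held 31 measured loci, among them P450 72A loci. From 1 to 5 days of darkness 12 were higher and 1 lower, with 23.4% and 11.4% of all loci (median 0.54, all loci 0.21). From 30 to 60 min of light 3 were higher and 11 lower, with 15.2% and 11.8% of all loci (median -0.67, all loci 0). P450 87A3-like (ZS03g0584600), singled out after its values were seen, stood at 2.06 FPKM at 5 days dark and 47.2 after 60 min of light, and at or below 0.0612 in the other 4 libraries. These are the 2 libraries in which D27-like was above 1 FPKM.

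The remaining groups are given for light against 5 days dark, where 9.49% of all loci were higher and 11.4% lower after 30 min, 14.8% and 12.8% after 60 min, and 11.6% and 14.4% after 24 h. Beside these shares, counts in groups of a few loci say little. D14L and KAI2, the 2 measured loci of 3 in the karrikin and strigolactone perception list, gave 1 higher and 1 lower after 30 min, 0 and 1 after 60 min, and 0 and 0 after 24 h. The strigolactone synthesis list gave 0 and 1, 1 and 1, and 0 and 1 of 2 measured loci. The BAK1 ortholog entry, shared by 65 loci, gave 4 and 5, 16 and 9, and 12 and 4 of 56 measured loci. The BRI1 entry gave 11 and 8, 25 and 9, and 16 and 9 of 91, and the BZR1/BES1 entry 1 and 0, 2 and 0, and 0 and 0 of 4. The BKI1 entry gave 1 higher and 0 lower of 2 in each comparison. The ortholog entry of D14L gave 1 and 1, 0 and 1, and 0 and 1 of 8. The term brassinosteroid biosynthetic process gave 0 and 2, 1 and 3, and 0 and 5 of 21, and the strigolactone terms 1 higher and 0 lower of 3 in each comparison.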
